A study of Mus musculus with 6 samples.

Results

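The genes described here are epiregulin (Ereg) and 6 further genes of the EGF receptor pathway in tumor macrophages: the ligands Areg, Hbegf, Btc and Tgfa, the receptor gene Egfr and the receptor's feedback inhibitor Errfi1. They are 7 of the 22377 genes in the count table, found by their symbols, and 6 of them passed the filter on low counts among 13884 genes tested. They were chosen by their known place in the pathway and with the wt against ko values of these same libraries in view, so every difference between the groups is given below as a description, without a test. The libraries were made from Lewis lung carcinoma (LLC) tumors, a mouse lung carcinoma cell line grown under the skin of mice. There are 3 wt and 3 ko libraries, each labelled as a separate biological sample, although a heatmap legend of the paper speaks of fewer mice and how libraries map to mice was not settled here. No genotype stands in the labels, which read wt for 3 libraries and ko and knockdown for the other 3, and the groups of the paper are Npm1+/+ and heterozygous Npm1+/- mice, young adults of both sexes.

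Several points limit these groups as a model. By their genotype, all cells of an Npm1+/- host carry 1 intact Npm1 allele, while the injected carcinoma cells are the same line in both groups. The methods state that CD45+ CD11b+ F4/80+ macrophages were sorted before a low-input cDNA library was made, whereas the labels give whole tumor tissue and a small RNA protocol, and these accounts were not reconciled here. Npm1 itself, which encodes the nucleolar protein nucleophosmin, was at 142, 380.2 and 381 CPM in wt replicates 1, 2 and 3 and at 441, 498.5 and 343 CPM in ko replicates 1, 2 and 3. CPM are read counts scaled to a common library size, here with TMM factors. The targeted gene was therefore not lower in the libraries labelled ko, so directions are those of the labels only.

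The EGF receptor is a tyrosine kinase at the cell surface that is switched on by a family of small ligands made as membrane-bound precursors and cut free by proteases, chiefly ADAM17. Amphiregulin (Areg), heparin-binding EGF-like growth factor (Hbegf) and epiregulin are released by macrophages during inflammation and repair and act on neighboring epithelial cells and fibroblasts. Errfi1, also called Mig-6, binds the active kinase and shuts it down, and its transcript is itself induced by growth factor signaling.

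The ligands share one folded unit, the EGF-like domain that touches the receptor, held together by disulfide bonds between cysteines. In the coding sequences of the GRCm38 annotation, each of the 5 member ligands and their relative epigen (Epgn) held exactly 1 stretch of 36 residues with 6 cysteines at the same spacing, with 7, 4, 10, 1 and 8 residues between them. In all of these genes the stretch was coded by exons 3 and 4. The coding bases are printed for 4 ligands to show that their cysteine codons line up although the residues between them differ. They are written 5′ to 3′ on the coding strand with the intron left out, and the capitals mark the cysteine codons.
Ereg, exons between chr5:91088496-91089111, plus strand: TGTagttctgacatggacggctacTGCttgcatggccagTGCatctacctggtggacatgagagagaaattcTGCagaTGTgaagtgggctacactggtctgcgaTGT
Areg, exons between chr5:91143614-91144364, plus strand: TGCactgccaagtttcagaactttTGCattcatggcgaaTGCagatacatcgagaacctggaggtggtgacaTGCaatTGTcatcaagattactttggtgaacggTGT
Btc, exons between chr5:91362421-91366197, minus strand: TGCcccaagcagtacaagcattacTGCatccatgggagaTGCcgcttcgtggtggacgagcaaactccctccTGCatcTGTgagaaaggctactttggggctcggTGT
Tgfa, exons between chr6:86263200-86269960, plus strand: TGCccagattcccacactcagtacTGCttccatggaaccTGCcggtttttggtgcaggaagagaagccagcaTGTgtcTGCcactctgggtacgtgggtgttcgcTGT
Within the stretch, Ereg and Areg shared 33.3% of their 36 residues, the lowest share of the 15 pairs, equal to that of Areg and Epgn. The closest pair was Hbegf and Btc with 55.6%, and Ereg stood at 44.4% to both Hbegf and Btc and at 41.7% to both Tgfa and Epgn.

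Of the members, 3 lie side by side. On chromosome 5 of GRCm38, Epgn, Ereg, Areg and Btc are the 4 protein-coding genes of a stretch of 375531 bases with 7 annotated genes. Ereg runs from 91074622 to 91093646 and Areg from 91139599 to 91148432, both on the plus strand, with 45952 bases between them. Btc lies 208828 bases beyond Areg on the minus strand, from 91357261 to 91402994. The neighbors did not share a level or a pattern. Areg had between 2002 and 4050 counts and Ereg between 44 and 2390, whereas Epgn had between 0 and 7 counts and Btc between 4 and 20.

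The libraries were of even depth, with total counts between 36550775 and 38147320, and where a gene has no count its level may still reach 3 counts, or 0.0716 to 0.0846 CPM by library. That bound covers counting error only. Wt replicate 1 stood apart from the other libraries: on the first principal component, which held 68.0% of the variance of all genes tested, it lay at -108.5 and the other 5 libraries between -4.54 and 52.0. Values without it are given below. In the quasi-likelihood test of edgeR, no gene passed a Benjamini-Hochberg adjusted p of 0.05 (0% of 13884), 2112 genes had an unadjusted p under 0.05, and DESeq2 called 36 genes (0.263% of 13699), none of them a member. With all 6 libraries, 13.3% of the genes tested had every ko library above every wt library, and 12.6% had every ko library below. Scaling by library totals alone moved that split to 2577 genes higher and 955 lower, from 1842 and 1751 with TMM, and shifted the median log2 fold change of all genes tested from 0.02 to 0.16. The sorted cell type was present, since all 9 macrophage markers passed the filter, with Lyz2 between 5667 and 14140 CPM and the F4/80 gene Adgre1 between 127 and 302 CPM. Their sum was 15600 to 20970 CPM in wt and 9311 to 15540 CPM in ko, and 5 of the 9 were lower in ko without overlap. The summed neutrophil markers ranged from 1202 to 1500 CPM in wt and from 571 to 1192 CPM in ko, those of mast cells and basophils from 339 to 374 and from 185 to 335, those of dendritic cells from 181 to 298 and from 213 to 286.5, and those of endothelium from 29.6 to 36.9 and from 28.0 to 30.4.

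Ereg was the member with the widest spread. Epiregulin binds both the EGF receptor and ERBB4. It was at 1.24, 26.0 and 17.8 CPM in wt replicates 1, 2 and 3 and at 60.8, 55.3 and 47.5 CPM in ko replicates 1, 2 and 3, from 44, 924, 664, 2390, 2316 and 1738 counts. Every ko library lay above every wt library, and the lowest ko value was above the highest wt value by more than the spread among the ko libraries. The group means were 15.0 ± 12.6 CPM in wt and 54.5 ± 6.66 CPM in ko (SD, n = 3 each), and the fitted log2 fold change of ko over wt was 1.86 with a standard error of 0.81, a fold of 3.63. Most of the spread in wt came from replicate 1, and without that library the log2 fold change was 1.31. It was 2.52 without wt replicate 2.

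Ereg moved with some, but not all, markers of cells that a macrophage gate should leave out. The 9 fibroblast markers summed to 24.0, 477.5 and 276 CPM in wt replicates 1, 2 and 3 and to 688, 544 and 345 CPM in ko replicates 1, 2 and 3, and 8 of 8 tested had an estimate above 0, none without overlap of the groups. The 7 epithelial or carcinoma markers summed to 36.1, 138 and 80.4 CPM in wt and to 192, 183 and 129 CPM in ko, with 2 of 4 tested above 0 and 1 lower in ko without overlap. Both sums were lowest in wt replicate 1, as Ereg was. The collagen gene Col3a1 was the largest part of the fibroblast sum in each library, and the keratin gene Krt8 that of the epithelial sum in 5 libraries. Col3a1 was at 19.0, 426 and 245 CPM in wt and 604.5, 474 and 308 CPM in ko, and Krt8 at 9.90, 117 and 59.1 CPM in wt and 171, 165 and 105.5 CPM in ko. The cadherin gene Cdh1, at 24.3, 14.1 and 16.6 CPM in wt and 13.7, 9.43 and 18.2 CPM in ko, was highest in wt replicate 1, where it made up most of the epithelial sum, and so ran opposite to Ereg there. Krt7, the marker lower in ko without overlap, was at 0.928, 0.338 and 0.455 CPM in wt and at 0.305, 0.286 and 0.246 CPM in ko. Of the other fibroblast markers, Dcn reached 25.6 CPM, Lum 20.6, Pdgfra 22.3 and Pdgfrb 6.74, each lowest in wt replicate 1. Col1a1, Col1a2 and Postn were instead lowest in wt replicate 3, at 0.561, 0.241 and 0.160 CPM. Some defining markers were at or near 0: Krt19 and Cldn4 had no count in 5 of the 6 libraries, Fbln1 had none in 4, Epcam reached at most 0.716 CPM and Col1a1 at most 5.52 CPM. As a percent of the epithelial or carcinoma sum, Ereg stood at 3.42, 18.9 and 22.1 in wt and at 31.7, 30.2 and 36.8 in ko. As a percent of the fibroblast sum, it stood at 5.16, 5.45 and 6.44 in wt and at 8.83, 10.2 and 13.8 in ko. The mean log2 difference was 1.54 on the first scale and 0.92 on the second. Since Ereg was chosen on this contrast and the sums rest on few genes, nothing is read from these ratios. The part of these cells in the level of Ereg was not tested, and in bulk RNA a change in the number of cells that make a transcript and a change in the RNA of each cell cannot be told apart.

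**Figure D1:**
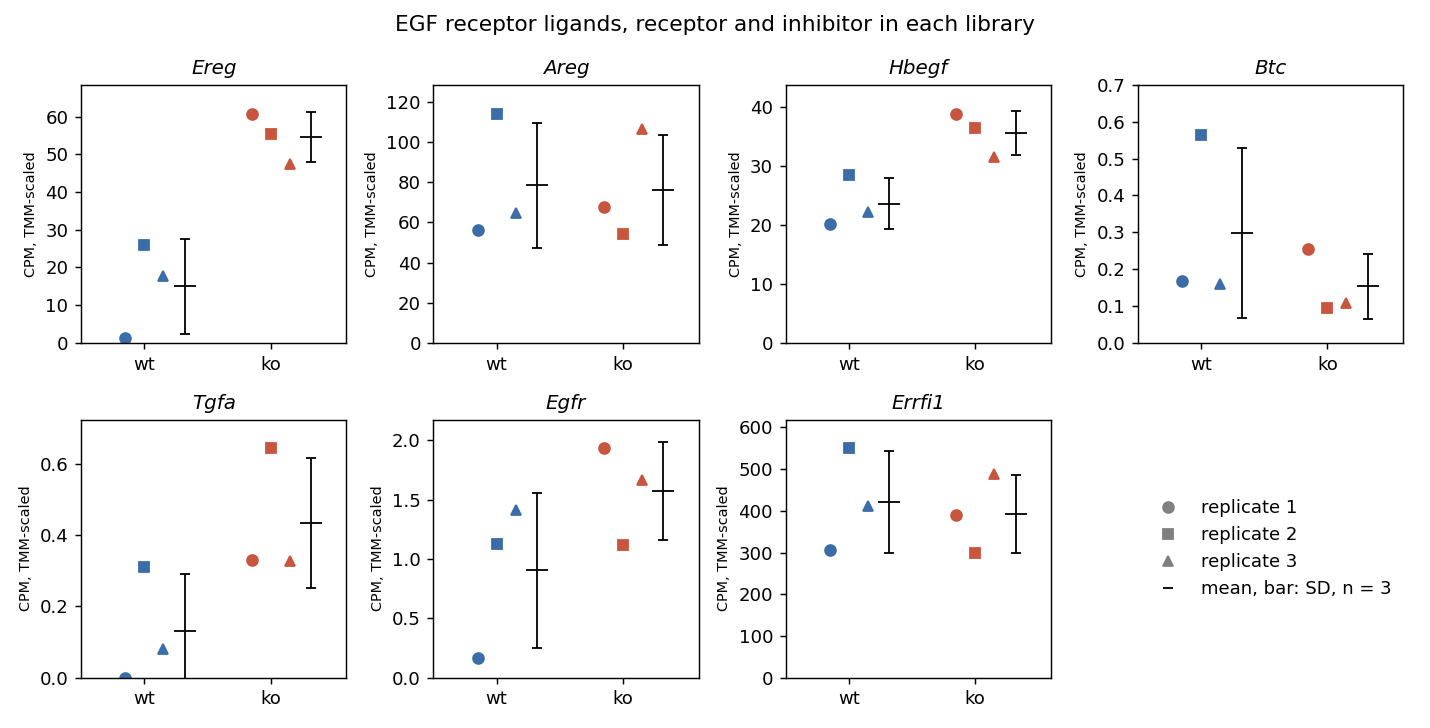
Level of each of the 7 genes, in CPM after TMM scaling (vertical axis, a scale of its own in each panel, from 0), in the wt and ko libraries (horizontal axis). Points are libraries, shapes are replicate numbers, and the line and bar are the mean and SD of 3 libraries, cut off at 0. The ko points of Ereg sit between 47.5 and 60.8 CPM, above all wt points, as do those of Hbegf and Tgfa, and the groups overlap for Areg, Btc, Egfr and Errfi1.

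The start of Ereg overlaps another annotated gene by 152 bases, the antisense RNA gene Gm19610 on the minus strand. It had 1, 19 and 14 counts in wt replicates 1, 2 and 3 and 35, 32 and 28 counts in ko replicates 1, 2 and 3, the same order of groups as Ereg at far lower counts. Its log2 fold change was 1.36 with a standard error of 0.76, or 1.97 without wt replicate 2, and it did not pass the test (edgeR adjusted p = 0.364). The sources used here do not say whether the counting used strand, so reads of the overlap could belong to either gene. The noncoding Gm19619, between Areg and Btc, had 0, 0 and 1 counts in wt and 9, 1 and 0 counts in ko, too few to describe.

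Areg, the next gene along the chromosome, did not follow Ereg. It was at 56.3, 114 and 64.9 CPM in wt replicates 1, 2 and 3 and at 67.5, 54.0 and 107 CPM in ko replicates 1, 2 and 3. The groups overlapped throughout, with the highest value in wt replicate 2 and the lowest in ko replicate 2. Means were 78.4 ± 31.2 CPM in wt and 76.1 ± 27.4 CPM in ko (SD, n = 3 each), and the log2 fold change was -0.04 with a standard error of 0.33. Its sign turned with the scaling, to 0.12 on log2(FPKM + 0.1), and the value was -0.24 without wt replicate 1. Wt replicate 1, where Ereg nearly vanished, held 2002 counts of Areg.

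Hbegf encodes the ligand that binds heparan sulfate and, in its uncut form, serves other species as the diphtheria toxin receptor. It was at 20.2, 28.5 and 22.3 CPM in wt replicates 1, 2 and 3 and at 38.9, 36.4 and 31.6 CPM in ko replicates 1, 2 and 3. All ko libraries were again above all wt libraries, with a narrower gap and a much smaller spread than for Ereg. Means were 23.7 ± 4.34 CPM in wt and 35.7 ± 3.72 CPM in ko (SD, n = 3 each). The log2 fold change was 0.59 with a standard error of 0.17, a fold of 1.51, and it was 0.49 without wt replicate 1. Hbegf lies on chromosome 18 from 36504927 to 36515805 on the minus strand, apart from the cluster of Ereg and Areg, and overlaps no other annotated gene.

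Tgfa and Btc were near the limit of detection. Transforming growth factor alpha, a ligand typical of epithelia, had 0, 11 and 3 counts in wt replicates 1, 2 and 3 and 13, 27 and 12 counts in ko replicates 1, 2 and 3. The ko counts were all above the wt counts, but by 1 count at the closest, and Tgfa passed the filter through its ko libraries. The gene lies on chromosome 6 from 86195223 to 86275719 on the plus strand and shares 2360 bases with Gm43917 on the other strand. Its log2 fold change of 1.72 had a standard error of 0.96 and depended on single wt libraries, with 1.15 without wt replicate 1 and 3.31 without wt replicate 2. On log2(FPKM + 0.1) it was 0.66. Betacellulin (Btc), a ligand known from the pancreas and gut, had 6, 20 and 6 counts in wt and 10, 4 and 4 counts in ko and did not pass the filter. Its groups overlapped, with the highest level in wt replicate 2, at 0.169, 0.564 and 0.160 CPM in wt and 0.254, 0.0955 and 0.109 CPM in ko.

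Egfr, the receptor of all 5 ligands, was barely detected. It had 6, 40 and 53 counts in wt replicates 1, 2 and 3 and 76, 47 and 61 counts in ko replicates 1, 2 and 3, or 0.169, 1.13 and 1.42 CPM against 1.93, 1.12 and 1.67 CPM. The low value was again wt replicate 1, and the other 5 libraries overlapped. The log2 fold change was 0.80 with a standard error of 0.67, and 0.30 without wt replicate 1. Egfr lies on chromosome 11 from 16752203 to 16918158 on the plus strand and shares 15272 bases with the antisense gene Egfros, so reads there could be of either gene.

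Errfi1, the inhibitor, had the highest counts of the 7 genes. It was at 305.5, 549.7 and 410.4 CPM in wt replicates 1, 2 and 3 and at 389, 299.7 and 487 CPM in ko replicates 1, 2 and 3. As with Areg, wt replicate 2 and ko replicate 3 were the high libraries and the groups overlapped. The means were 422 ± 123 CPM in wt and 392 ± 93.8 CPM in ko (SD, n = 3 each), with a log2 fold change of -0.11 and a standard error of 0.25. It turned to 0.06 on log2(FPKM + 0.1) and was -0.30 without wt replicate 1. Errfi1 lies on chromosome 4 from 150853919 to 150868892 on the plus strand and shares 1031 bases with the antisense gene 1700045H11Rik.

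Of the 6 members tested, 3 (Ereg, Hbegf and Tgfa) had all ko libraries above all wt libraries, where the share over all genes was 13.3%, and 0 had all ko libraries below, where it was 12.6%. The same 3 genes were counted with TMM factors, with DESeq2's size factors and with library totals alone. The median log2 fold change of all 6 was 0.69 against 0.02 over all genes tested. Since the members were selected on this contrast, nothing is read from these counts.

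Levels per gene length put the members in a fixed order that the choice of genes did not use. In FPKM, a count is set against the length of the gene and the total of the library. Errfi1 was highest, from 84.8 to 152.7 FPKM with a median of 120.9, followed by Areg from 43.2 to 87.7 FPKM with a median of 55.4. Hbegf ranged from 7.92 to 17.6 FPKM with a median of 12.1, and Ereg from 0.279 to 15.4 FPKM with a median of 8.51. The rank of these 4 genes in FPKM was the same in 6 of 6 libraries, ko libraries included. It rests on the single length used for each gene, 4136 bases for Ereg, 2375 for Hbegf and 1215 for Areg. Before division by length, Ereg was above Hbegf in each ko library, at 60.8, 55.3 and 47.5 against 38.9, 36.4 and 31.6 CPM. Egfr (0.0122 to 0.158 FPKM), Btc (0.0369 to 0.183 FPKM) and Tgfa (0 to 0.156 FPKM) formed a low group.

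The steps between neighbors in this order were tested within libraries. A wrong gene length would shift all libraries alike, and the test cannot measure that. In a two-sided exact permutation test that flips the sign of each library's difference, Errfi1 over Areg, Areg over Hbegf, Hbegf over Ereg and Ereg over Egfr each gave p = 0.03125, the smallest that 6 libraries allow, and an adjusted p of 0.04688 over the 6 neighbor pairs. The mean differences on log2(FPKM + 0.1) were 0.96 ± 0.17, 2.31 ± 0.56, 1.17 ± 1.64 and 4.83 ± 1.65 (SD over 6 libraries). The step from Hbegf to Ereg was thus the least even of the first 3. Egfr over Btc (0.17 ± 0.57, exact permutation p = 0.5, adjusted p = 0.594) and Btc over Tgfa (0.14 ± 0.63, exact permutation p = 0.594, adjusted p = 0.594) held in 4 of 6 libraries each and did not differ beyond their spread.

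**Figure D2:**
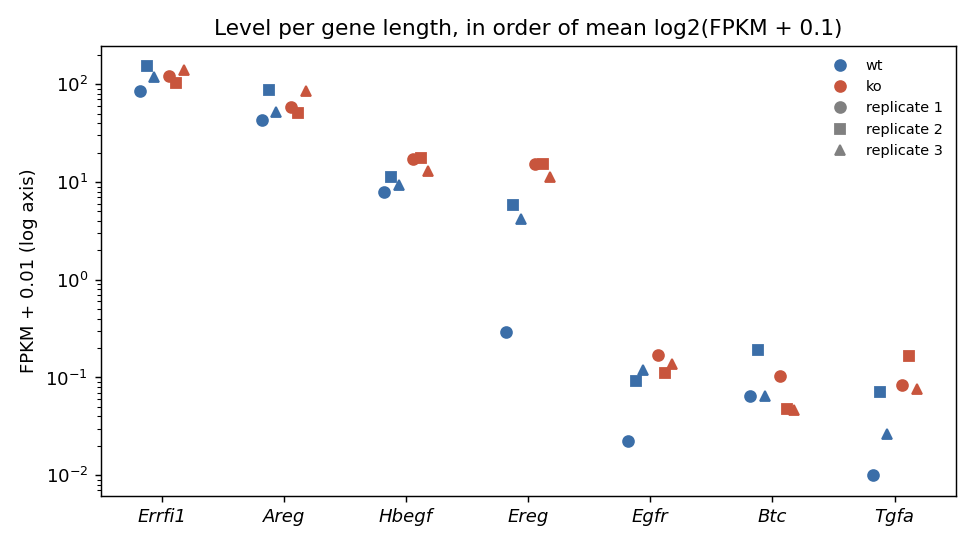
FPKM of each gene plus 0.01 (vertical log axis) in the 6 libraries, with genes in order of their mean log2(FPKM + 0.1) along the horizontal axis. Colors are groups and shapes are replicate numbers. Errfi1, Areg, Hbegf and Ereg keep their order in 6 of 6 libraries, wt replicate 1 has the lowest Ereg at 0.279 FPKM, and Egfr, Btc and Tgfa all lie below 0.2 FPKM.

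The ratios of the 3 well-detected ligands differed between libraries. The ratio of Areg to Ereg, both in FPKM, was 154.9, 14.9 and 12.4 in wt replicates 1, 2 and 3 and 3.78, 3.33 and 7.64 in ko replicates 1, 2 and 3. The ratio of Hbegf to Ereg was 28.4, 1.91 and 2.19 in wt and 1.12, 1.15 and 1.16 in ko. Per gene length, Areg was thus the leading ligand transcript in each library, and Hbegf and Ereg came close to each other in the 3 ko libraries. In CPM, Ereg was above Areg in ko replicate 2, at 55.3 against 54.0.

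Across the 6 libraries the members fell into profiles of unlike width. On log2 CPM centered on each gene's mean, the range over libraries was 5.56 for Ereg, 3.72 for Tgfa and 3.16 for Egfr, and it was 1.08 for Areg, 0.95 for Hbegf and 0.87 for Errfi1. The first 3 were lowest in wt replicate 1, and so was Hbegf. Likeness was measured as the root-mean-square difference between 2 centered profiles, over 6 libraries that all genes share. The closest pair of members was Areg and Errfi1 at 0.157, and Errfi1 was also the closest of all 13883 other genes to Areg, ahead of the chemokine gene Ccl7 at 0.160 and Gm10814 at 0.160. The median over all genes was 0.53. The nearness was not mutual, since Errfi1 had nearer genes than Areg, such as Tnfaip8 at 0.0791.

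**Figure D3:**
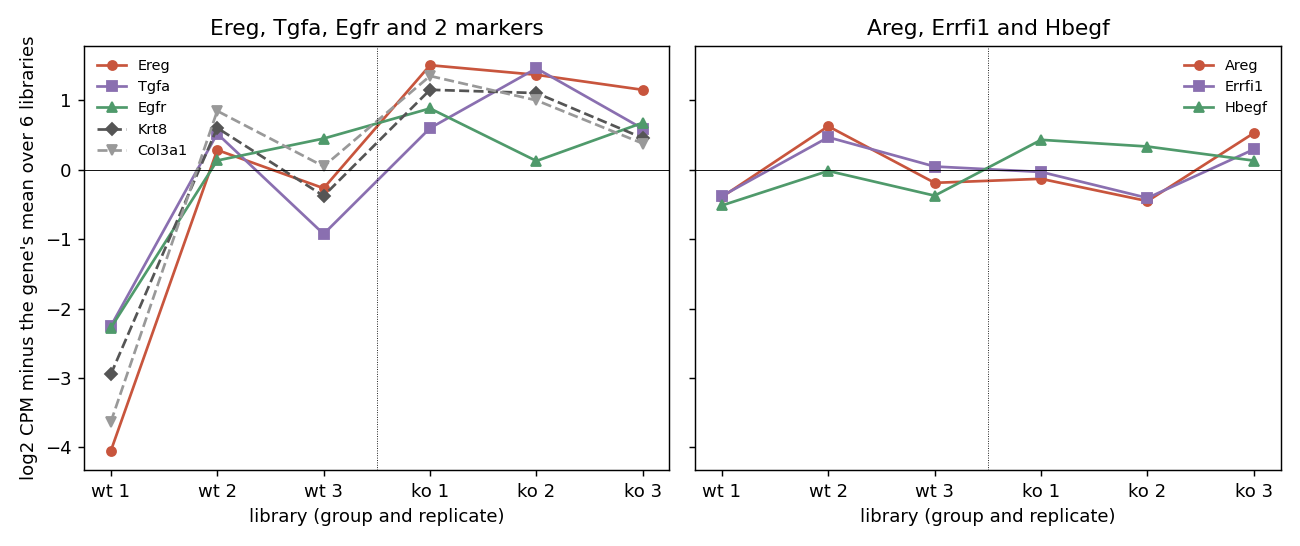
log2 CPM minus the gene's mean over 6 libraries (vertical axis) in each library (horizontal axis, with a dotted line between wt and ko). Lines only join the points of one gene, since replicates have no order. On the left, Ereg, Tgfa and Egfr fall lowest in wt replicate 1 beside the epithelial marker Krt8 and the fibroblast marker Col3a1. Among markers not drawn, the epithelial Cdh1 and Krt7 are highest there, and the fibroblast Col1a1, Col1a2 and Postn are lowest in wt replicate 3. On the right, Areg and Errfi1 are both high in wt replicate 2 and ko replicate 3, at an RMS difference of 0.157.

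For Ereg the 5 most similar profiles were those of Kitl (stem cell factor), at a difference of 0.167, Ghr (growth hormone receptor) at 0.178, Gdnf (a neurotrophic factor) at 0.208, Mpdz (a scaffold protein) at 0.223 and Sgcd (a sarcoglycan) at 0.240. The median over all genes was 1.93. Kitl was at 0.731, 14.2 and 9.76 CPM in wt replicates 1, 2 and 3 and at 32.5, 27.6 and 19.8 CPM in ko replicates 1, 2 and 3, lowest and highest in the same libraries as Ereg. Hbegf was nearest to Mtfr2, Bod1 and 4930579G24Rik, at 0.0543 to 0.0622, Tgfa to Zfp423, Mlph and Tcaf2, at 0.150 to 0.180, Egfr to Cth, Zfp697 and Adm2, at 0.234 to 0.246, and Errfi1 to Tnfaip8, Raet1e and Samsn1, at 0.0791 to 0.0944.

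Because Errfi1 had the profile nearest to that of Areg, the bases just before a RefSeq start site of each are shown. The bases shown for Areg end where the annotated gene begins. Those shown for Errfi1 lie inside the annotated gene, which begins at 150853919. RefSeq windows of 250 bases upstream, on GRCm38.p6, were given for 5 of the 7 members, 6 windows in all. Ereg and Hbegf had no window, so their upstream bases were not searched. Only these upstream bases were searched, in the members as in all windows, and bases past the start were left out. Both strands were searched for the cAMP response element TGACGTCA, the AP-1 site TGANTCA, the STAT site TTCNNNGAA and the TATA box TATAAA, motifs chosen after the profiles were seen. The cAMP response element was in 2 of the 6 windows, that of Areg, 61 to 54 bases before the start, and 1 of those of Errfi1, 51 to 44 bases before it. Among all 32851 windows 1.55% held it. Both windows also held TATAAA, found in 12.4% of all windows. None of the 6 member windows held the AP-1 site (6.75% of all) or the STAT site (7.02% of all). The bases are written 5′ to 3′ with both motifs in capitals, the cAMP response element first.
Areg, chr5:91139498-91139598, plus strand: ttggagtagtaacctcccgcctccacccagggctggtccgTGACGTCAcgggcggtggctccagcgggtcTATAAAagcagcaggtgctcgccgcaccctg
Errfi1, chr4:150854979-150855069, plus strand: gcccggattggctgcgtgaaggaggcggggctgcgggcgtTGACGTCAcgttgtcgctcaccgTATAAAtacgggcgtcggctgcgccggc
Neither stretch overlaps an annotated exon of the members or Epgn, and exons of other genes were not checked. In both, TATAAA follows the cAMP response element on the printed strand. The cAMP response element itself reads the same on either strand. A match of letters is a description of the sequence and not evidence of binding.

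The wider pathway was described with 7 lists of 73 genes, of which 69 passed the filter. None was called by edgeR (smallest adjusted p = 0.328) or by DESeq2, and at an unadjusted edgeR p under 0.05 there were 7 higher and 9 lower in ko. Over all 13884 genes tested, 958 were higher and 1154 lower by that rule. Without overlap of the groups there were 9 higher and 11 lower, which is 20 of 69 genes. Over all genes tested these shares were 13.3% and 12.6%. The median log2 fold change was -0.03 over the lists and 0.02 over all genes tested.

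Upstream of the ligands, the genes of shedding and trafficking gave 1 of 7 higher and 2 of 7 lower without overlap, and 1 of 7 each way with library totals alone. With TMM the shares over all genes tested were 13.3% higher and 12.6% lower. Rhbdf2 and Frmd8, which carry ADAM17 to the cell surface in blood cells, were lower by log2 fold changes of -0.44 (SE 0.13) and -0.43 (SE 0.15). Rhbdf2 was at 162.5, 155 and 125 CPM in wt replicates 1, 2 and 3 and at 112, 109 and 105 CPM in ko replicates 1, 2 and 3. With library totals alone its groups overlapped, at 32.1 FPKM in wt replicate 3 and 32.4 FPKM in ko replicate 2. Its paralog Rhbdf1 had a log2 fold change of 1.07 (SE 0.59) with overlap, and Timp3, an inhibitor of ADAM17, one of 2.68 (SE 0.99) from 0, 11 and 1 counts in wt and 29, 28 and 29 counts in ko. Wt replicate 2 held most of the wt counts, and without it the value was 5.44, a fitted size against a group near 0. Without wt replicate 1 it was 2.11. All 4 had an edgeR adjusted p of 0.328 or more.

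Among the other ligands, Nrg1, a neuregulin that binds ERBB3 and ERBB4, was the one with clear counts. It was at 28.1, 28.5 and 25.6 CPM in wt and 23.3, 17.5 and 26.5 CPM in ko, overlapping, with a log2 fold change of -0.29 (SE 0.18). Egf (0.83, SE 0.57), Nrg2 (-0.56, SE 0.48) and Nrg4 (-1.12, SE 0.91) stayed below 2 CPM in each library, where single libraries moved Egf to 1.48 (without wt replicate 3) and Nrg4 to -2.01 (without ko replicate 2), and Epgn and Nrg3 did not pass the filter. Of the partner receptors, Erbb2 was at 0.366, 3.44 and 1.18 CPM in wt and 3.76, 4.32 and 2.60 CPM in ko, lowest in wt replicate 1 like Egfr, with a log2 fold change of 1.10 (SE 0.70) that was 2.20 without wt replicate 2, and Erbb3 between 2.17 and 4.88 CPM. Erbb4 did not pass the filter.

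Downstream, the adaptor and RAS-ERK list had 15 of its 20 genes below 0, and 6 lower and 1 higher without overlap. Over all 13884 genes tested, 6656 were below 0 and 7228 above, and 12.6% were lower and 13.3% higher without overlap. That direction turned with the scaling, since with limma on log2(FPKM + 0.1) 9 of the 20 were below 0 and with library totals alone 4 were lower and 3 higher without overlap. Gab2, a docking protein of immune cells, had a log2 fold change of -0.41 (SE 0.13) and the kinase gene Map2k1 one of -0.44 (SE 0.15). Plcg1 (0.87, SE 0.26) was the gene higher without overlap, and the exchange factor Sos1 (0.42, SE 0.19) overlapped. Of the feedback inhibitors 11 of 15 were above 0, or 12 of 15 on log2(FPKM + 0.1), with 5 higher and 1 lower without overlap. On log2(FPKM + 0.1) the median of all genes tested also lay higher, at 0.16. Dusp4, a nuclear phosphatase of ERK, was at 18.2, 33.3 and 36.3 CPM in wt and 66.6, 94.3 and 44.2 CPM in ko, a log2 fold change of 1.23 (SE 0.34, edgeR adjusted p = 0.328). Its relative Dusp6 was lower in all ko libraries by a small margin (-0.26, SE 0.12), and overlapped with library totals alone, and the ubiquitin ligase Cbl (-0.43, SE 0.17) and Lrig1 (1.11, SE 0.72) overlapped. The summed T cell markers, at 25.2, 26.2 and 76.6 CPM in wt and 71.6, 177 and 63.0 CPM in ko, were highest in ko replicate 2, as Dusp4 and Plcg1 were, and their part in these values was not tested.

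The ERK target list held no gene higher without overlap and 1 lower, where the shares over all genes tested were 13.3% and 12.6%. Etv4, at 0.759, 13.6 and 8.71 CPM in wt and 22.5, 19.1 and 12.2 CPM in ko, and Myc, at 60.5, 261 and 178 CPM in wt and 401, 387 and 241 CPM in ko, were lowest in wt replicate 1 as Ereg was. The log2 fold change of Etv4 was 1.22 (SE 0.79), and 1.91 without wt replicate 2. Fos (-0.60, SE 0.28) and Ier3 (-0.39, SE 0.22) were lower on average, with overlap. Genes that respond to cAMP and CREB, the factor that binds the cAMP response element, gave 2 higher and 1 lower of 11 without overlap and a median log2 fold change of 0.01. Ptger2, a prostaglandin E2 receptor gene that raises cAMP, was the lower one at 65.3, 87.9 and 73.1 CPM in wt and 47.3, 35.7 and 60.8 CPM in ko (-0.66, SE 0.21). Nr4a1 (-0.59, SE 0.21) and Fosb (0.37, SE 0.18) overlapped, and Pde4d (0.53, SE 0.22) was higher in each ko library. None of these passed the test (edgeR adjusted p of 0.328 or more).

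**Figure D4:**
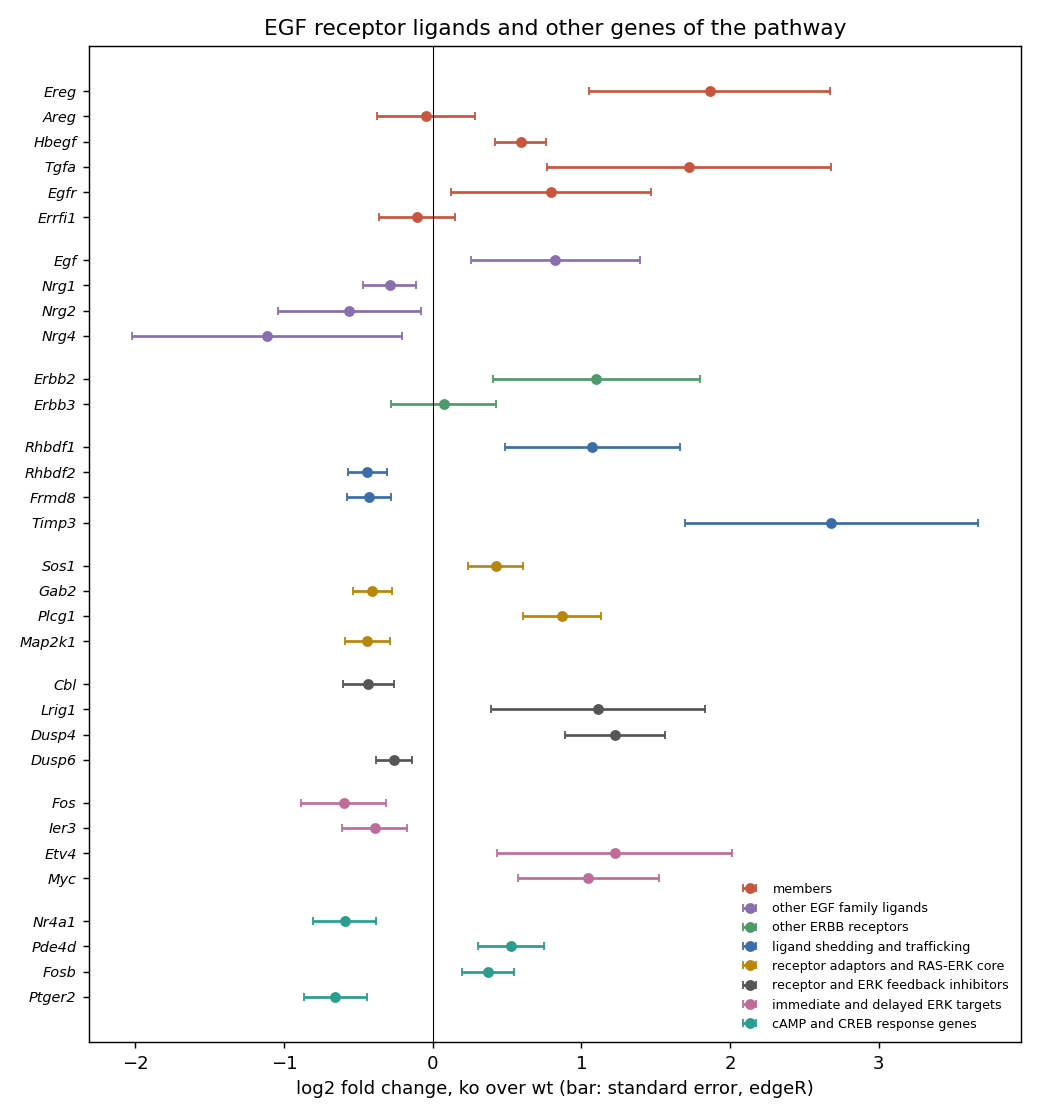
log2 fold change of ko over wt (horizontal axis) with its standard error from edgeR (bars), for the 6 members tested and the 26 pathway genes named by rule, in rows colored by list. Ereg (1.86) and Timp3 (2.68, from few counts, and 5.44 without wt replicate 2) lie farthest to the right with wide bars. Areg and Errfi1 lie at 0 within their error, and no pathway gene passed the test.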

How the data were processed

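For each of 6 libraries the authors deposited unnormalized whole-number read counts by gene, together with FPKM. Checked from the values, the deposited FPKM are these counts over a single length for each gene and over the library total. The submitters' processing notes name mm10. The aligner and counting tool are not given in the sources used here. All value columns were mapped to a library, and the files hold no comparison columns. The members and gene lists were chosen with earlier results of these data known.

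Counts were fitted with edgeR 4.0.16 in R 4.3.3 (filterByExpr with a minimum count of 10, TMM, glmQLFit, glmQLFTest, Benjamini-Hochberg over the 13884 genes tested), tested on simulated data. The standard error of a fold change was taken as its size on the log2 scale over the root of F. Profiles used log2 CPM with a prior count of 2. A p over these libraries measures the spread between samples, which may be technical in part. DESeq2 1.42.0, limma 3.58.1 on log2(FPKM + 1) or log2(FPKM + 0.1), other scalings, no filter, the replicate block and each library left out were alternatives. Scaling Ereg to marker sums was added after the data were seen. Deviations of same-numbered wt and ko libraries correlated at -0.24, 0.06 and -0.34. These values show no shared deviation by number, but with so few libraries and wt replicate 1 apart they cannot exclude a pairing. No libraries within a group were duplicates, with a chi-square per gene of at least 31.1 between replicates. Wt libraries were not compared with ko libraries in this way.

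Genes named were the 7 members, the 2 highest and 2 lowest log2 fold changes of each pathway list (all where 4 or fewer passed), the neighbors of Ereg and the 5 genes most similar to Ereg, or 3 to each other member. Positions and coding sequences are from the GENCODE annotation of GRCm38, the same build as mm10, and promoters from RefSeq.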

Additional observations from a re-analysis of the deposited data

How the results depend on the processing

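Both edgeR and limma called 0 genes under every alternative run, with 669 to 2914 genes at an unadjusted p under 0.05, against 36 genes called with DESeq2. Ereg, Hbegf, Tgfa and Egfr had a positive log2 fold change under every alternative run. The value of Ereg lay between 1.31 and 2.52 when libraries were left out, and was 1.84 with DESeq2's size factors and 2.05 and 2.70 with limma on log2(FPKM + 1) and log2(FPKM + 0.1). The value of Tgfa was 0.10 and 0.66 with limma on these scales, at levels of at most 0.156 FPKM, and 1.15 to 3.31 with libraries left out. Areg and Errfi1 changed sign. Areg was at 0.1137 and 0.1159 with limma on the 2 FPKM scales, 0.32 without wt replicate 2, 0.03 without ko replicate 1 and 0.14 without ko replicate 2, in a range of -0.37 to 0.32. Errfi1 was at 0.0553 and 0.0559 with limma, 0.13 without wt replicate 2 and 0.05 without ko replicate 2, in a range of -0.30 to 0.13. Erbb3, at 0.07, turned to -0.22 without wt replicate 1, in a range of -0.22 to 0.25, and no other pathway gene named changed sign. FPKM are scaled by library totals alone, which moved the median of all genes to 0.16. The count of genes whose groups do not overlap was 3593, and lay between 4116 and 6914 with 1 library left out, since fewer samples overlap less often. The 4 ordered steps among member levels held in each library under every alternative run, all of which used the same gene lengths.

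With the replicate number as a block, edgeR called 0 genes and the log2 fold change of Ereg was 2.41, and 1606 genes had an unadjusted p under 0.05. Whether same-numbered wt and ko libraries belong together was not settled here. No other pathway gene was called under any alternative run.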
